A study of Mus musculus with 4 samples.

Results

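Forkhead factors, the proteins encoded by the *Fox* genes, were followed on 4 arrays of mouse embryo RNA. They were chosen by name alone: every gene whose symbol is *Fox*, a letter from a to s and a number. This took 37 of the 18193 genes with a named probe set, in 17 subfamilies, measured by 82 probe sets. A probe set is a group of short probes against the end of a transcript, and 21 of the genes had more than 1.

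Forkhead factors bind DNA through a shared winged-helix domain, and the letter in the name groups those with the most similar domain. FoxA proteins open chromatin in endoderm and in the floor plate, FoxC, FoxD and FoxF proteins pattern mesenchyme and neural crest, and FoxJ1 switches on the genes of motile cilia. FoxO proteins are held in the cytoplasm by Akt downstream of insulin signalling, and FoxM1 drives genes of mitosis. FoxP proteins act as repressors in the developing brain, heart and lung.

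The study asked how forced expression of *Hand2*, a basic helix-loop-helix factor of the lower jaw, alters the facial neural crest. The mutants, *Hand2* CAT/+; Wnt1-Cre (hereafter *Hand2*NC), carry a transgene that Cre recombinase turns on in the neural crest and the other cells with *Wnt1* promoter activity. Wild-type and *Hand2*NC embryos shared a mixed C57BL/6J x ICR background and were taken as whole bodies on embryonic day (E) 11.5 and as heads on E12.5. RNA of several embryos was pooled and each of the 4 groups gave 1 array. There were thus no replicates, no p-value was computed, and precision is limited by the number of arrays. Stage and tissue changed together, so that a difference between the E12.5 head and the E11.5 whole body cannot be assigned to either. In RNA from whole tissue, fewer cells of a type and less RNA per cell cannot be told apart.

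Values are MAS5 signals, a linear intensity for each probe set, scaled so that each array had the same trimmed mean. At E11.5 the array median was 97.2 in wild-type and 101 in *Hand2*NC, and at E12.5 it was 106 and 102. A gene is given by its brightest probe set, and it entered a comparison when the brighter array was at or above its median. Beside each log2 difference stands the local spread, the robust standard deviation of the log2 difference over the 500 genes nearest in signal. It holds measurement error and true differences together and is no replicate error.

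The arrays were checked against their labels. At the *Hand2* probe set that differed most among those above the filter, signals were 67.1 in wild-type and 314 in *Hand2*NC at E11.5, and 33.4 and 706 at E12.5. It was picked for its difference, was below the array median in wild-type at both stages and could only be higher. The brightest *Hand2* probe set gave 1214 and 1244 at E11.5, and 592 and 839 at E12.5, log2 differences of 0.04 and 0.50. The remaining *Hand2* probe set was below the array median on all 4 arrays. Marker lists of the labelled tissues were counted. At least 2-fold higher in the whole body in both genotypes were 8 of 9 heart muscle genes above the filter, 6 of 7 fetal liver genes and 9 of 9 *Hox* genes of the posterior paralogue groups. Of these, 6, 5 and 9 were below the array median on both head arrays, entered through the whole body and could differ only that way. Summed heart muscle signal was 22291 and 23017 on the whole-body arrays and 5290 and 6056 on the head arrays. Higher in the head were 5 of 6 lens and retina genes, 1 of them dim on both whole-body arrays, and 4 of 8 telencephalon genes. Of 8 erythroid genes, 6 were past 2-fold higher in the whole body, 2 of them dim on both head arrays. Of 6 gut and lung endoderm genes none was past 2-fold, with medians of -0.20 and -0.05 for head over whole body. Of 4 kidney and gonad genes 1 was, *Wt1*, higher in the whole body at -3.16 and -1.70 and dim on both head arrays. The medians of these 4 genes were 0.72 and 0.69 towards the head. The 3 Y-linked genes measured were bright on 3 arrays and near 0 on the E12.5 *Hand2*NC array, where *Eif2s3y* read 14.4 against 840 to 956 elsewhere, and *Xist*, of the inactive X chromosome, read 16187 there against 8988 to 11947. *Foxo4* and *Foxp3* lie on the X chromosome. The part of embryo sex in any difference at E12.5 was not tested.

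Of the 37 forkhead genes, 24 lay at or above the array median on all 4 arrays. Another 11 lay below it on every array, with signals from 1.01 to 81.1: *Foxa3*, *Foxb1*, *Foxb2*, *Foxd4*, *Foxe3*, *Foxh1*, *Foxi1*, *Foxl1*, *Foxn1*, *Foxp3* and *Foxs1*. Several of these are known from small or transient sites, such as *Foxe3* in the lens, *Foxn1* in the thymus and *Foxp3* in regulatory T cells. *Foxj1* passed the median only on the head arrays and *Foxq1* only on the *Hand2*NC head array.

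**Figure D1:**
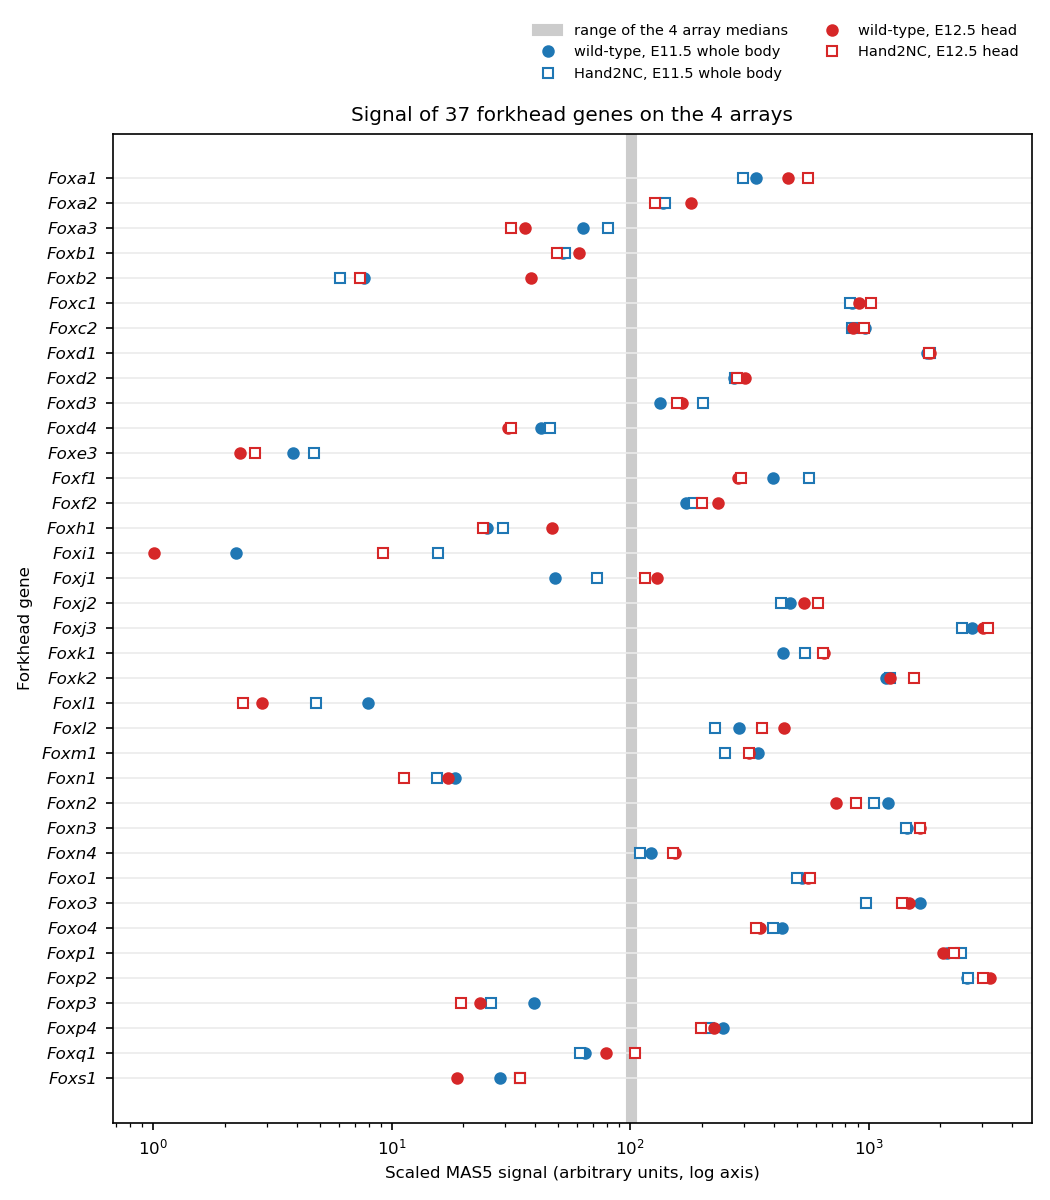
Scaled MAS5 signal (log axis, arbitrary units) of the 37 forkhead genes, 1 point per array: circles are wild-type, squares *Hand2*NC, blue E11.5 whole body and red E12.5 head. The grey band is the range of the 4 array medians, 97.2 to 106; 24 genes lie at or above it on every array and 11 below it on every array. Positions of different genes along the axis are not comparable as levels.

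The first comparison set the E12.5 head against the E11.5 whole body within each genotype. No forkhead gene was at least 2-fold apart in both genotypes, in either direction, of 25 above the filter. Over all 11801 genes tested, 1.92% were called higher in the head and 1.72% higher in the whole body. *Foxj1* was past 2-fold in wild-type alone, and the other 24 were within 2-fold in each genotype. The median log2 head over whole body of the 25 genes was 0.15 in wild-type and 0.18 in *Hand2*NC, against 0.03 and 0.04 over all genes. Their median absolute log2 difference was 0.19 in wild-type, against 0.27 over all genes, and 0.25 against 0.23 in *Hand2*NC.

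By a finer measure, a log2 difference beyond the local spread with the same sign in both genotypes, 3 forkhead genes (12% of 25) were higher in the head and 1 (4%) was higher in the whole body. The shares over all genes were 13% and 8.63%, so neither forkhead count stood above its background.

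*Foxa1*, a pioneer factor of endoderm and floor plate, read 336 in wild-type and 297 in *Hand2*NC whole bodies and 459 and 557 in the heads. Both head arrays lay above both whole-body arrays, by 0.45 on the log2 scale in wild-type (local spread 0.42) and 0.90 in *Hand2*NC (local spread 0.34). After centring each array on its median the wild-type value was 0.33, within its spread. *Foxa2*, which acts with it in the same tissues, read 138, 141, 179 and 127 on the 4 arrays in the same order, and its head and whole-body values overlapped.

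*Foxa3*, below the array median on every array, stood at -0.80 and -1.36 (local spread 0.69 and 0.67). The fetal liver genes around FoxA differed far more than *Foxa1* and *Foxa2*. Of 7 fetal liver genes that FoxA proteins activate, 6 were over 2-fold higher in the whole body in both genotypes, 5 of them dim on both head arrays. These 7 are the fetal liver markers of the label check above and give no separate result for FoxA. *Alb*, serum albumin, differed by -8.27 and -7.98 on the log2 scale and *Afp*, alpha-fetoprotein, by -7.01 and -6.85. The exception, named after its values were seen, was *Ttr*, transthyretin, which the choroid plexus also makes, at 0.94 and 0.85 in favour of the head. Of 9 foregut endoderm genes, *Gata6* was past 2-fold, at -3.02 and -2.33, and the list median was -0.03 and -0.04.

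*Foxf1*, a hedgehog-responsive factor of the mesenchyme around gut and lung, read 396 and 562 in the whole bodies and 282 and 291 in the heads of wild-type and *Hand2*NC. With both genotypes required, it was the only forkhead gene beyond the local spread in the direction of the whole body, at -0.49 (local spread 0.45) and -0.95 (local spread 0.36). Its second probe set read 98.5 and 66.1 against 39.0 and 30.4. That probe set was above the median only on the wild-type whole-body array. It could be called only in that direction and could not test the difference. *Foxf2*, its close relative, is a factor of palate and brain pericytes, and read 171 and 185 in whole bodies and 234 and 201 in heads. The pair thus lay in opposite directions, with *Foxf2* at 0.45 and 0.12, within its local spread of 0.55 and 0.46. Of 11 hedgehog pathway genes, which act upstream of *Foxf1* and *Foxc2*, none was past 2-fold, with medians of -0.01 and 0.14.

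*Foxl2*, needed for the eyelid and the ovary, read 287 and 227 in the whole bodies and 442 and 359 in the heads. The tissue difference was nearly equal in the 2 genotypes, at 0.62 (local spread 0.45) and 0.66 (local spread 0.38). Its second probe set was dim on all 4 arrays, from 7.16 to 32.2.

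*Foxj1*, the ciliogenesis factor, read 48.4 and 72.4 in the whole bodies and 130 and 115 in the heads. Since the whole-body arrays were below their medians, the gene entered the comparison through the head alone and could differ only in that direction. The wild-type value of 1.42 (2.69-fold, local spread 0.64) was past the cutoff and the *Hand2*NC value of 0.67 (1.59-fold, local spread 0.63) was not. Raising dim values to their array's median gave differences of 0.42 and 0.18. Of 11 motile cilium genes with a probe set, 2 were above the filter, and neither differed 2-fold.

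*Foxj2* and *Foxj3*, widely expressed members of the same subfamily, were also higher in the head in both genotypes, by 0.19 and 0.52 for *Foxj2* and by 0.16 and 0.35 for *Foxj3*. At their brightest probe sets, all 3 FoxJ genes and both FoxK genes, repressors of autophagy and partners of chromatin, had values above 0 in both pairs. Of these, *Foxj1* could only lie above 0. *Foxk1* stood at 0.57 and 0.25 and *Foxk2* at 0.06 and 0.34. The other *Foxk2* probe sets ran from -0.10 to 0.09 in wild-type and from -0.08 to 0.26 in *Hand2*NC. After centring each array on its median the wild-type value of *Foxk2* was -0.06. No value of *Foxj2*, *Foxj3*, *Foxk1* or *Foxk2* was beyond the local spread in both genotypes.

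FoxD and FoxC genes mark cranial and trunk mesenchyme, and they differed little between the tissues. *Foxd1*, of the face mesenchyme and the kidney stroma, read 1763, 1807, 1810 and 1793, and all 4 arrays agreed within 0.04 on the log2 scale. *Foxd2* stood at 0.15 and 0.04. *Foxc1* and *Foxc2*, factors of somite, meninges and vessel walls, stood at 0.10 and 0.29, and at -0.18 and 0.16. Of 12 endothelial genes with FoxC and FoxF input, none was past 2-fold, with medians of -0.07 and -0.09.

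The remaining subfamilies held the largest wild-type value in the direction of the whole body. *Foxn2*, a factor of little known function, read 1203 and 1056 in the whole bodies and 732 and 886 in the heads, or -0.72 in wild-type (local spread 0.33) and -0.25 in *Hand2*NC (local spread 0.30). *Foxn3*, a checkpoint repressor, stood at 0.18 in both genotypes and *Foxn4*, a factor of retina and spinal cord interneurons, at 0.33 and 0.45. *Foxp2*, known for its part in speech circuits, stood at 0.32 and 0.20. *Foxp1* stood at -0.06 and -0.09, *Foxp4* at -0.13 and -0.12 and *Foxo4* at -0.31 and -0.25.

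Genes downstream of the FoxO and FoxM1 factors were set beside them. Of 12 FoxO target genes, *Bcl6* was past 2-fold in both genotypes, at 1.09 and 1.00 in favour of the head. *Bcl6* encodes a repressor that acts in lymphoid and neural cells. It was below the array median on both whole-body arrays, entered through the head and could differ only that way. The list median was 0.28 and 0.12. The 11 FoxM1 targets had medians of -0.35 and -0.20, with *Bub1*, a spindle checkpoint kinase, at -0.65 and -0.48, and none was past 2-fold. *Foxm1* itself stood at -0.13 and 0.34. Of 11 genes of the insulin and Akt input, none was past 2-fold, with medians of 0.24 and 0.19. Of 10 telencephalon genes, 6 were past 2-fold higher in the head, with medians of 1.10 and 1.30. Of 7 FoxP partner genes, *Tbr1* was past 2-fold higher in the head and *Gata6* in the whole body.

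The tissue differences of the 2 genotypes were set side by side. Of 25 genes, 19 had the same sign in both pairs (76%), 14 towards the head and 5 towards the whole body, against 78.3% over all genes. Of the 11801 genes, 5060 lay towards the head in both pairs and 4178 towards the whole body. Among the 14, *Foxj1* could only lie towards the head. Pearson's r between the pairs was 0.589 over the 25 forkhead genes and 0.831 over 11801 genes. These correlations are across genes, which are not independent replicates, the range of differences was narrower among forkhead genes, and the gap to all genes was not tested. The median absolute gap between the pairs was 0.27 for forkhead genes and 0.17 for all genes. *Foxo3*, *Foxd3* and *Foxc2* were among the 6 with opposite signs, the first at -0.15 and 0.50, the second at 0.31 and -0.36.

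**Figure D2:**
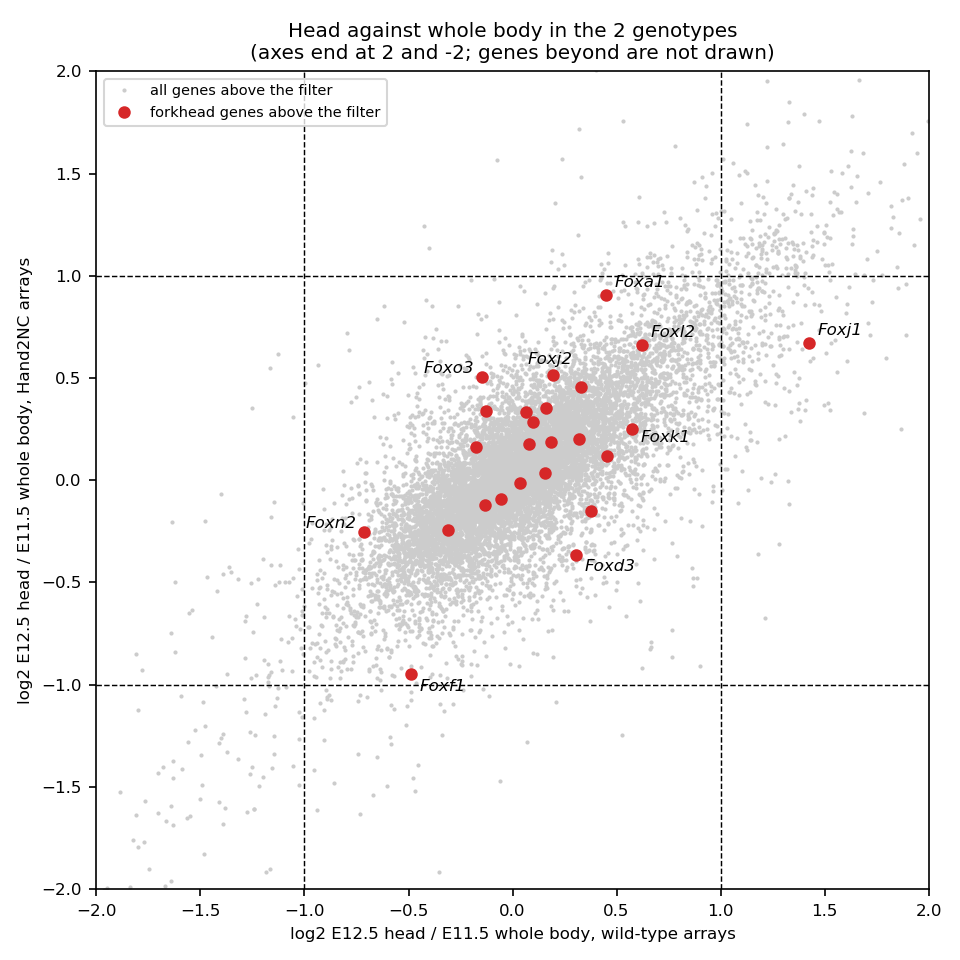
Log2 E12.5 head over E11.5 whole body on the wild-type arrays (x) and on the *Hand2*NC arrays (y), 1 point per gene above the filter, with forkhead genes in red over all genes in grey and dashed lines at 2-fold. No red point lies past the dashed lines in both genotypes; *Foxj1* is past it in wild-type alone, and *Foxf1* lies closest to it among forkhead genes higher in the whole body.

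The second comparison set *Hand2*NC against wild-type at each stage. At E11.5, no forkhead gene of 24 above the filter was 2-fold apart, where 0.177% of 11883 genes were called higher in *Hand2*NC and 0.269% lower. At E12.5, none of 26 was, where 0.203% of 11814 genes were called higher and 0.195% lower. Median absolute log2 differences of the forkhead genes were 0.14 and 0.13 at the 2 stages, against 0.12 and 0.11 over all genes.

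Beyond the local spread at E11.5 were 4 genes higher in *Hand2*NC (16.7% of 24) and 6 lower (25%), beside 16.2% and 17.4% of all genes. At E12.5 there were 7 higher (26.9% of 26) and 3 lower (11.5%), beside 17% and 16.4%. A share of all genes this large shows that 1 local spread is a wide gate, and these genes are listed as descriptions of 4 arrays. The same shares of all genes are the background for the counts in gene lists below.

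**Figure D3:**
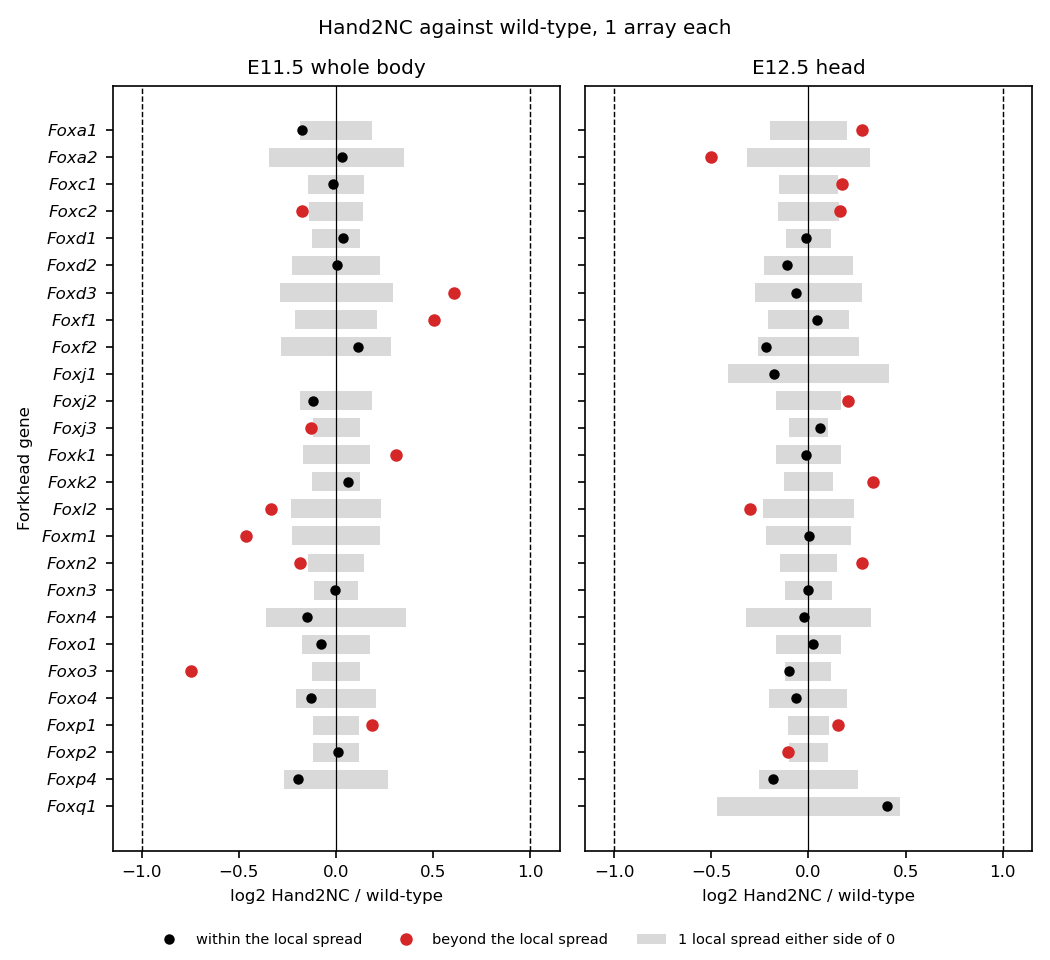
Log2 *Hand2*NC over wild-type of the forkhead genes above the filter at E11.5 (left) and E12.5 (right), 1 array against 1. Grey bars span 1 local spread either side of 0, red points lie beyond it and dashed lines mark 2-fold. No point reaches the dashed lines, and *Foxo3* at E11.5 lies farthest outside its bar.

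*Foxo3*, a stress and growth sensor that insulin signalling keeps out of the nucleus, lay farthest from 0 at E11.5 for its signal. Its brightest probe set read 1642 in wild-type and 977 in *Hand2*NC at E11.5, and 1483 and 1384 at E12.5. The E11.5 *Hand2*NC array was the low one of the 4, at -0.75 on the log2 scale, which is 6.09 times the local spread of 0.12. Of 11883 genes, 9 (0.0757%) lay as far or farther. A second *Foxo3* probe set above the filter read 588, 603, 555 and 518, a difference of 0.04 at E11.5. The difference was thus seen by 1 of the 2 probe sets bright enough to judge, and which transcripts each of them reads was not tested. At E12.5 both probe sets stood at -0.10.

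The other FoxO genes were closer to 0 at E11.5. *Foxo1*, which shares the Akt input, read 528 and 501 and stood at -0.08, and its 2 further bright probe sets at -0.16 and -0.12. *Foxo4* read 435 and 398 and stood at -0.13. Of the 11 FoxO target genes above the filter at E11.5, 3 were higher and 1 lower beyond the local spread and none was past 2-fold. *Fbxo32*, a ubiquitin ligase of muscle wasting, was among them at 0.94, from 55.6 in wild-type to 106 in *Hand2*NC, having entered through the *Hand2*NC array alone, with *Cat*, catalase, at 0.52 and *Sesn1*, a stress-induced regulator of growth, at -0.21. Of the 11 genes of the Akt input, 2 were higher and 5 lower beyond the spread, *Pik3r1* at 0.27 and *Igf1r* at -0.21 among them. Over all genes at E11.5, 16.2% were higher and 17.4% lower beyond it.

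*Foxf1* was higher in *Hand2*NC at E11.5, 562 against 396, or 0.51 with a local spread of 0.21, and equal at E12.5, 291 against 282, or 0.04. As far from 0 for their signal lay 3.56% of genes. Its second probe set read 66.1 against 98.5 at E11.5, or -0.57. That probe set entered through the wild-type array alone and could differ only that way, so it could not test the difference. *Foxf2* read 185 against 171 at E11.5 (0.11) and 201 against 234 at E12.5 (-0.22), within its local spread at both stages. Of the hedgehog genes, 1 was higher and 2 lower beyond the spread at E11.5, with *Smo*, the signal transducer, at 0.23 and *Sufu*, an inhibitor, at -0.36. At E12.5, 4 were higher and 1 lower, with *Shh*, the ligand, at 0.27 and *Gli2*, an effector, at -0.20. The shares of all genes were 16.2% higher and 17.4% lower at E11.5, and 17% and 16.4% at E12.5.

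*Foxd3*, a repressor that keeps neural crest cells multipotent, read 202 in *Hand2*NC against 133 in wild-type at E11.5 and 157 against 164 at E12.5. It stood at 0.61 (1.52-fold) at E11.5, with a local spread of 0.29, and at -0.06 at E12.5, and 6.14% of genes lay as far at E11.5. It has 1 probe set. Of 10 neural crest genes set beside it, 2 were higher and 2 lower beyond the spread at E11.5, none 2-fold, with *Sox10*, of migrating crest and glia, at -0.68 and *Sox8* at 0.34. At E12.5, 1 was higher and 3 lower, with *Sox10* at 0.23, within its spread, and *Tfap2b* at -0.23. Of all genes, 16.2% were higher and 17.4% lower at E11.5, and 17% and 16.4% at E12.5.

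*Foxm1*, which drives entry into mitosis, read 249 in *Hand2*NC against 343 in wild-type at E11.5, or -0.46 with a local spread of 0.23. At E12.5 it read 315 against 314. The 2 other probe sets above the filter gave 0.10 and 0.32 at E11.5, opposite in sign to the brightest, and 0.51 and -0.27 at E12.5. The value of 0.51 rose from 88.3 in wild-type, below the array median, to 125 in *Hand2*NC, and could only be higher. Of 11 FoxM1 targets, 1 was lower beyond the spread at E11.5 and none higher. At E12.5, 7 of the 11 were higher beyond the spread and 1 lower, beside 17% and 16.4% of all genes. The list median was 0.12 against 0.00 over all genes. The values of those higher ran from 0.11 to 0.23, the latter for *Cdc25b*, a phosphatase that activates Cdk1, and *Nek2*, a centrosome kinase, stood at -0.27.

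*Foxl2* had the same sign at both stages, with 227 in *Hand2*NC against 287 in wild-type at E11.5 and 359 against 442 at E12.5. The differences were -0.34 and -0.30, each with a local spread of 0.23. *Foxp1*, a repressor that acts in motor neurons and the heart, was the other gene beyond the spread with the same sign at both stages. Together they make 8.33% of the 24 genes above the filter at both, beside 5.62% of all genes. *Foxp1* read 2433 against 2139 and 2283 against 2057, at 0.19 and 0.15 with local spreads of 0.12 and 0.10. *Foxp1* has 8 probe sets above the filter at each stage, and those other than the brightest ran from -0.25 to 0.69 at E11.5 and from -0.18 to 0.40 at E12.5. Both upper ends belong to the same probe set, with 64.5 in wild-type and 104 in *Hand2*NC, then 102 and 135. It entered through the *Hand2*NC array alone at each stage and could only be higher. Without it the upper ends were 0.17 and 0.39. Its relative *Foxp2* read 2617 against 2599 at E11.5 and 3014 against 3238 at E12.5, at 0.01 and -0.10, and the 4 other bright *Foxp2* probe sets were also below 0 at E12.5, from -0.22 to -0.08. *Foxp4* stood at -0.19 and -0.18, within its spread.

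*Foxc2* and *Foxn2* were beyond the spread in opposite directions at the 2 stages. *Foxc2* read 856 in *Hand2*NC against 967 at E11.5 and 958 against 857 at E12.5, at -0.18 and 0.16 with local spreads of 0.14 and 0.15. *Foxn2* read 1056 against 1203 and 886 against 732, at -0.19 and 0.28 with local spreads of 0.14 and 0.15. These were 8.33% of the 24 genes above the filter at both stages, where 6.61% of all genes behaved so. Of the 24 genes, 9 had the same sign at both stages and 15 (62.5%) opposite signs, beside 52.4% opposite over all 11449 genes. *Foxc1*, the partner of *Foxc2*, read 840 against 849 and 1024 against 909, at -0.01 and 0.17, and its second probe set gave 0.03 at E12.5.

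Other forkhead genes passed the local spread at 1 stage. *Foxk1* read 540 in *Hand2*NC against 436 at E11.5 (0.31, local spread 0.17) and 643 against 649 at E12.5 (-0.01). *Foxk2* read 1232 against 1182 at E11.5 (0.06) and 1554 against 1236 at E12.5 (0.33, local spread 0.13), and 2.82% of genes lay as far at E12.5. Its 4 other probe sets gave 0.31, 0.14, -0.02 and -0.27 at E12.5, so that the FoxK2 probe sets did not share a direction. *Foxj2* read 615 against 535 at E12.5 (0.20, local spread 0.17) after 430 against 468 at E11.5 (-0.12). *Foxj3* read 2477 against 2711 at E11.5 (-0.13, local spread 0.12) and 3160 against 3033 at E12.5 (0.06).

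The FoxA genes moved apart at E12.5. *Foxa1* read 557 in *Hand2*NC against 459, at 0.28 with a local spread of 0.20, and *Foxa2* read 127 against 179, at -0.50 with a local spread of 0.31. At E11.5 they read 297 against 336 and 141 against 138, both within the spread. Each has 1 probe set, and 14.3% of genes lay as far as *Foxa2*. Of 9 foregut endoderm genes, 3 were higher beyond the spread at E12.5 and none lower, beside 17% and 16.4% of all genes. *Gata6* was at 0.78, from 82.6 in wild-type, below the array median, to 142 in *Hand2*NC, so that it could be called only as higher.

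The rest lay within the spread at both stages. *Foxd1*, *Foxd2*, *Foxn3*, *Foxn4*, *Foxo1* and *Foxo4* ran from -0.15 to 0.04 over both stages. *Foxn3* was the closest to 0, with 1440 against 1444 at E11.5 and 1637 against 1639 at E12.5. *Foxj1*, above the filter at E12.5 only, stood at -0.18 with a local spread of 0.41, and *Foxq1*, a factor of hair and gastric epithelium, at 0.40 with a local spread of 0.47, having entered through the *Hand2*NC array alone.

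Probe sets of the same gene gave a further reading, since each measures the gene apart from the others on the same arrays. At E11.5, 10 forkhead genes had 2 or more probe sets above the filter. Of the 27 probe sets other than the brightest, 11 had the sign of the brightest and 16 the other sign. Among the 11 that belong to genes beyond the local spread, 3 had the same sign. At E12.5, 8 genes had such probe sets, and 19 of 24 had the sign of the brightest, or 12 of 16 for genes beyond the local spread. The matching shares over all genes were not computed, for the mutant or for the tissue comparison. The counts thus describe these probe sets and cannot be read as a trait of forkhead genes or of a stage. These counts include probe sets that entered through 1 array alone, whose sign the filter fixed. At E11.5 they belong to *Foxf1*, *Foxn3* and *Foxp1*, and at E12.5 to *Foxm1* and *Foxp1*. The mutant differences of *Foxo3* and *Foxm1* at E11.5 each rested on 1 probe set. That of *Foxf1* did too, but its second probe set could only be lower and could not test it. *Foxp2* at E12.5 had all its bright probe sets on the same side. For the tissue comparison, 14 of 25 further probe sets had the sign of the brightest in both genotypes. Those of *Foxp4* were above the median only in the whole body and could differ only that way.

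**Figure D4:**
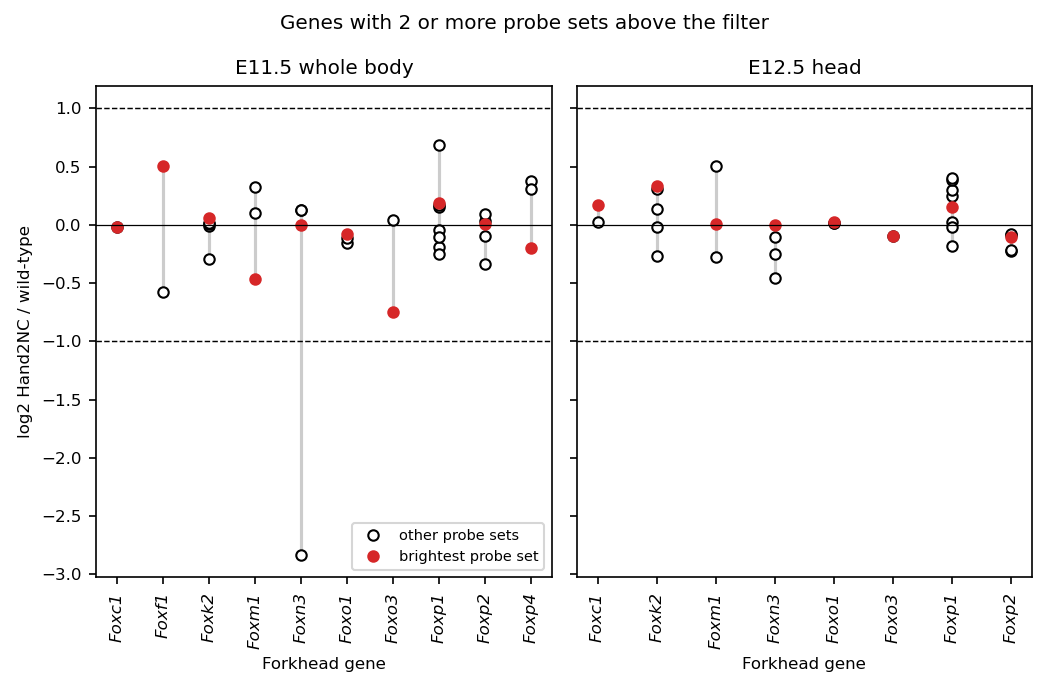
Log2 *Hand2*NC over wild-type of each probe set above the filter, for forkhead genes with 2 or more, at E11.5 (left) and E12.5 (right). Red marks the brightest probe set, which gives the gene's value, open circles the others and dashed lines 2-fold. At E11.5 the red points of *Foxo3*, *Foxf1* and *Foxm1* lie apart from their open circles, and a *Foxn3* probe set lies at -2.84. That probe set and the open circle of *Foxf1* entered through the wild-type array alone and could lie only below 0.

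Some forkhead genes are neighbours in the genome. *Foxq1*, *Foxf2* and *Foxc1* follow each other with 0 protein-coding genes between them, and at E12.5 stood at 0.40, -0.22 and 0.17, of which the value of *Foxc1* was beyond its local spread. In the tissue comparison *Foxf2* and *Foxc1* were both above 0 in both genotypes. *Foxf1* and *Foxc2* lie with 1 protein-coding gene between them and *Foxl1* follows *Foxc2* directly. *Foxf1* stood at 0.51 and *Foxc2* at -0.18 at E11.5, and at 0.04 and 0.16 at E12.5, and *Foxl1* was below the array median on all 4 arrays.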

How the data were processed

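Gene expression was measured on 4 Affymetrix mouse arrays. The deposited values are linear intensity signals, 1 per probe set, which the authors made with MAS5 (named in the submitters' processing notes; version not given in the sources used here). Of 45101 probe sets, 64 controls were left out. Arrays were brought to a common 2% trimmed mean, 500, before taking log2. Platform annotation named 34945 probe sets with 1 symbol, while 932 with several and 9160 with none were not used for genes. Gene identifiers of 34741 probe sets, among them all 82 forkhead ones, were in the RefSeq table (GRCm38.p6, used for names and neighbours), and 0 symbols changed. Of 44 RefSeq symbols of the family, 7 were not analysed here. Among probe sets of a gene, the brightest by mean log2 signal was used. Genes entered a comparison when the brighter array was at or above its 50th percentile and were called at 2-fold, for tissue in both genotypes. All array columns matched a sample (0 left over). The counting was tested on simulated data. Python 3.11.15, numpy 2.4.6, pandas 2.3.3 and matplotlib 3.10.9 were used.

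Every one of the 37 family members with a named probe set was accounted for. Array values were given for genes beyond the local spread in *Hand2*NC at either stage, or near or past the fold cutoff, and other members may be named with theirs. Other genes came from pathway and marker lists, at most 4 per list by size of change, with *Hand2* and Y-linked genes as checks. Members and lists were chosen with earlier results of these data known. Alternatives were other scalings, filters, probe set rules and fold cutoffs. Tissue labels follow the sample records, which call the E11.5 samples whole bodies, whereas the study's legend calls them heads.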

Additional observations from a re-analysis of the deposited data

Results flagged for a closer look

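The difference between *Hand2*NC and wild-type of *Foxc2* was -0.18 on the log2 scale at E11.5 and 0.16 at E12.5, and that of *Foxn2* -0.19 and 0.28. Each was beyond the local spread in opposite directions at the 2 stages, with 1 array per group. Whether the difference between the stages is larger than replicate error was not tested, and stage and tissue cannot be told apart.

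A *Foxn3* probe set that did not give the gene's value read 130 in wild-type and 18.2 in *Hand2*NC at E11.5, and 163 and 119 at E12.5. Its difference of -2.84 at E11.5 was the only one past 2-fold among forkhead probe sets above the filter in the mutant comparisons. At E11.5 it entered through the wild-type array alone and could differ only that way. The gene's other 3 probe sets stood at -0.00, 0.13 and 0.13 at E11.5. The sequence that this probe set reads was not used here.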

How the results depend on the processing

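The counts at 2-fold were 0 in each comparison, and stayed 0 with arrays centred on their medians or quantile normalized. Without a filter, 1 gene was called higher in the whole body (*Foxl1*) and 1 higher in *Hand2*NC at E11.5 (*Foxi1*). At E12.5, 1 was called higher in *Hand2*NC (*Foxi1*) and 1 lower (*Foxb2*). All of these lay at signals below the array medians. At a 1.5-fold cutoff, 2 were higher in the head (*Foxj1* and *Foxl2*) and 2 were called at E11.5 (*Foxd3* and *Foxo3*). With any probe set, 1 was called at E11.5 (*Foxn3*, by a probe set that could only be lower). With the mean over probe sets 1 was called at E12.5 (*Foxj2*). From the wild-type pair alone, a setting added after the data were seen, 1 was higher in the head (*Foxj1*).

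Counts beyond the local spread moved more, and these settings too were added after the data were seen. Those higher in the whole body went from 1 to 2 without a filter, with any probe set and in the wild-type pair alone, and to 0 under a 75th percentile filter, which also left 0 higher in the head. The *Hand2*NC pair alone gave 8 higher in the head. At E11.5, those higher in *Hand2*NC went from 4 to 1 with the mean over probe sets and those lower from 6 to 10 with any probe set. At E12.5, those lower went from 3 to 5 without a filter, with dim values raised to the median (where 2 of the local spreads are 0) and with any probe set, and to 1 under a 75th percentile filter.

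Over all genes, calls at E11.5 went from 53 to 2172 without a filter, 3 under a 75th percentile filter, 10 with dim values raised, 172 with the mean and 140 with any probe set, and 343 at 1.5-fold. At E12.5 they went from 47 to 2299, 7, 14, 203, 150 and 321. Calls higher in the head went from 226 to 514 without a filter, 111 at the 75th percentile, 149 with the mean and 835 at 1.5-fold, and those higher in the whole body from 203 to 600, 64 and, with dim values raised, 127, and to 405 at 1.5-fold. Of 700 recomputed differences of single forkhead genes, 657 moved by less than the local spread and 43 by more, 40 of them with the mean over probe sets. *Foxo3* at E11.5 went from -0.75 to 0.04 without probe sets that can read several transcripts, *Foxf1* from 0.51 to -0.03 and *Foxl2* from -0.34 to 0.92 with the mean. Centring on the medians moved all wild-type tissue differences by -0.12. The cause of these moves was not tested. Signal limits the reading of the 11 genes below the array medians.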
